A study of Mus musculus with 8 samples.

Results

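*Esr1*, the gene of estrogen receptor α, was followed in tumor endothelial cells (TECs) together with 7 genes tied to it by function. These were the second nuclear estrogen receptor *Esr2*, the membrane estrogen receptor *Gper1*, the estrogen-related receptors *Esrra*, *Esrrb* and *Esrrg*, and the receptor targets *Pgr* and *Greb1*. The 8 genes were taken by symbol out of 33641 listed symbols, and 6 of them reached the level needed for testing. Levels are TPM, transcript abundances per transcript length on a scale with the same total in every library, and a gene was tested where 4 or more libraries had a TPM of 1 or above. *Gper1* and *Esrrb* did not pass. *Esr1* was selected on its own difference between these libraries and reached that level only through the endFoxf1+/- libraries, so its values are a description with no test, whereas the other 7 genes were chosen for their function.

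RNA was sequenced from CD45-CD31+ cells, sorted from mouse lung tumors that had been microdissected 21 days after Lewis lung carcinoma (LLC) cells, a mouse lung tumor line, were placed in the left lung lobe. The 4 endFoxf1+/- libraries (H1 to H4) came from mice with 1 floxed *Foxf1* allele and the Pdgfb-iCreER transgene, given tamoxifen by oral gavage as young adults, so that Cre removes exon 1 of that allele in cells where the *Pdgfb* promoter is active. The 4 control libraries (C1 to C4) are labelled only as control. The study describes its controls in one place as single transgenic littermates with either the floxed *Foxf1* allele or the Pdgfb-Cre transgene, and elsewhere as floxed littermates or, in the methods of the tumor model, as C57Bl/6 wild type mice. It describes the mice of the LLC model as treated with tamoxifen. Which kind of control each library came from, and so whether it carried Cre, is not given. The study calls its replicates biological, but a legend on *Foxf1* in this RNA-seq names fewer samples per group than are analysed here, and how many animals stand behind a library is not given. The p-values therefore measure the spread between these libraries, which may be technical in part.

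Estrogen receptors α and β are transcription factors that bind estradiol, and bind DNA at palindromes of the half-site GGTCA with 3 bases between the arms. In endothelium both are known for their part in nitric oxide production and vessel repair, and *Gper1* encodes a receptor in the membrane that responds to estradiol. The estrogen-related receptors share the DNA-binding fold but do not bind estradiol, and regulate genes of mitochondrial energy metabolism. *Pgr*, the progesterone receptor, and *Greb1*, a cofactor of estrogen receptor α, are classical targets induced by the receptor. CreER proteins are Cre recombinase fused to a mutated ligand-binding domain of estrogen receptor α, which tamoxifen metabolites activate and estradiol does not.

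The endothelial level of a library, the geometric mean TPM of 20 endothelial markers, set H3 and H4 apart. Relative to the mean of the controls it lay between 85.1% and 108% in C1 to C4, at 103% in H1 and 107% in H2, at 57.2% in H4 and at 5.40% in H3. Summed TPM of 15 fibroblast markers ranged from 77.0 to 158 in control and from 150 to 1476 in endFoxf1+/- libraries, the highest in H3. Most of the sum in H3 was *Col3a1* (556) and *Dcn* (533). Of 13 tested fibroblast markers 8 were higher and 5 lower on average (median log2 difference 0.99, and 0.88 without H3). Summed TPM of 12 myeloid markers, most of it *Lyz2* in every library, ranged from 1453 to 5107 and from 1807 to 8339. All 11 tested myeloid markers were higher in endFoxf1+/- TECs on average (median log2 difference 1.41, and 0.70 without H3). Summed TPM of 12 pericyte and smooth muscle markers was lower in every endFoxf1+/- library (46.4 to 140) than in any control library (150 to 180). Summed TPM of 14 epithelial markers varied widely, from 6830 to 31323 in control and from 1604 to 23725 in endFoxf1+/- libraries, and 12 of 13 tested were lower on average. The epithelial sum exceeded that of the 20 endothelial markers in C3 (31323 against 12822), H3 (1604 against 767) and H4 (23725 against 7919). In H3 the myeloid sum (8339) and the fibroblast sum (1476) exceeded it as well. Erythroid and platelet markers, 8 in all, summed to between 852 and 1729 TPM in control and between 385 and 907 TPM in endFoxf1+/- libraries. All 7 that were tested were lower on average (median -1.22, and -0.94 without H3). The sum of 10 lymphocyte markers lay between 19.9 and 23.0 TPM in control and between 15.1 and 111 TPM in endFoxf1+/- libraries. No gene of these marker lists was at 0 in all libraries. Summed TPM of 4 Y-linked genes was low in C4, H2 and H3 (14.1 to 21.7) and high in the other 5 libraries (107 to 137), so both groups held libraries of each kind. H3 was less clear than C4 and H2. *Eif2s3y* stood at 0.930 in C4, 0.366 in H2 and 8.63 in H3, and *Ddx3y* at 1.45, 0.881 and 4.62. In *Kdm5d* and *Uty* H3 was the lowest library. Fewer cells of a type and less RNA per cell cannot be told apart in these bulk samples. Differences without H3, or without H3 and H4, stand beside the main ones. The part of cell makeup in them was not tested.

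*Esr1* occupies positions 4611593 to 5005614 of chromosome 10, plus strand (GRCm38, GENCODE vM21), and no other annotated gene overlaps it. Its TPM was 0.750, 0.624, 0.368 and 0.573 in C1 to C4 and 140, 84.7, 11.1 and 124 in H1 to H4. All 4 control libraries were under 1 and all 4 endFoxf1+/- libraries over 10, so the groups did not overlap. The means were 0.579 ± 0.159 (SD, n = 4) in control and 90.1 ± 57.6 (SD, n = 4) in endFoxf1+/- TECs, a ratio of 156, or 201 without H3. The lowest endFoxf1+/- library was 14.8-fold above the highest control library. By TPM, *Esr1* was the 1020th, 1807th, 6735th and 861st gene of its library in H1 to H4, and lay between the 15789th and the 17271st in the control libraries.

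On the log2(TPM + 1) scale *Esr1* differed by 5.38 between the group means, first among the 14964 genes tested. The next gene, the ribosomal protein pseudogene *Rpl3-ps1*, differed by 4.24. Without H3 the difference of *Esr1* was 6.19, and without H3 and H4 it was 6.13.

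**Figure D1:**
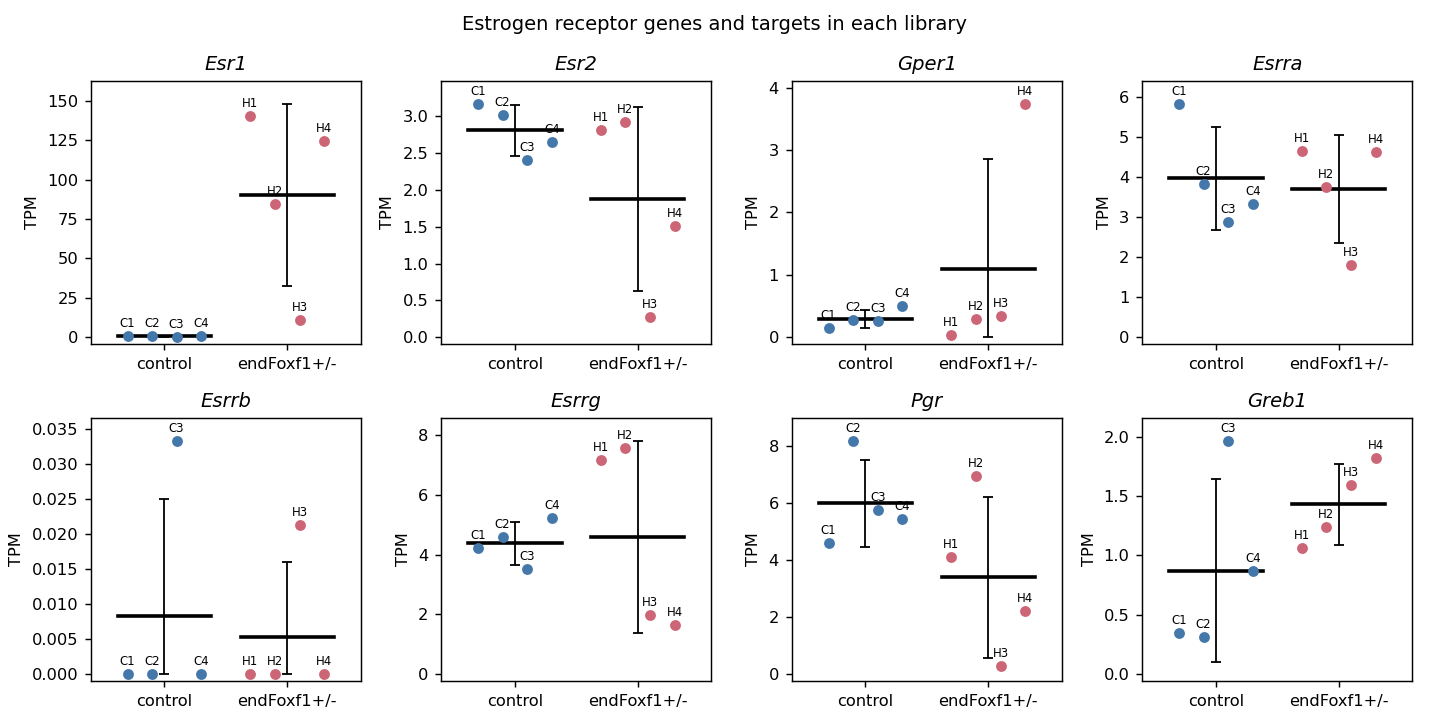
TPM of the 8 genes in each library, each panel with its own linear axis from 0; points are libraries, the horizontal bar is the group mean and the error bar 1 SD (n = 4), cut at 0 where it would pass below. The *Esr1* panel shows 4 control points under 1 TPM and endFoxf1+/- points from 11.1 to 140, whereas in each of the other 7 panels the groups overlap.

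The deposited values are 1 per gene symbol. Reads from the receptor domain of a CreER transgene and reads from the mouse's own *Esr1* therefore cannot be told apart in them, and the Cre sequence itself was not analysed here. The level of *Esr1* was set beside that of *Pdgfb*, whose promoter drives the transgene. *Pdgfb*, a growth factor gene of endothelial cells, had a TPM of 148, 152, 131 and 142 in C1 to C4 and 163, 126, 7.58 and 93.0 in H1 to H4. Between the highest and the lowest endFoxf1+/- library *Esr1* spanned 12.7-fold, *Pdgfb* 21.5-fold and the endothelial level 19.8-fold, and all of these were lowest in H3. The ratio of *Esr1* to *Pdgfb* was 0.860, 0.673, 1.46 and 1.34 in H1 to H4, a span of 2.17-fold. In the control libraries this ratio lay between 0.00280 and 0.00505.

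Per endothelial level the pattern was similar. *Esr1* amounted to 28.5%, 16.7%, 43.1% and 45.8% of the endothelial marker mean in H1 to H4, a span of 2.74-fold, and to between 0.0910% and 0.151% in C1 to C4. H3, which had the lowest *Esr1* TPM among endFoxf1+/- libraries, thus had the second highest level once set against its endothelial markers. *Foxf1*, the targeted gene, had a TPM of 213, 285, 296 and 331 in C1 to C4 and 177, 203, 14.04 and 105 in H1 to H4. Every endFoxf1+/- library lay below every control library (log2 difference -1.68, exact two-sided permutation p = 0.0286, the smallest that 4 against 4 can give). Its limma adjusted p was 0.790. The difference was -0.83 without H3, -0.55 without H3 and H4, and -0.48 relative to the endothelial markers.

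**Figure D2:**
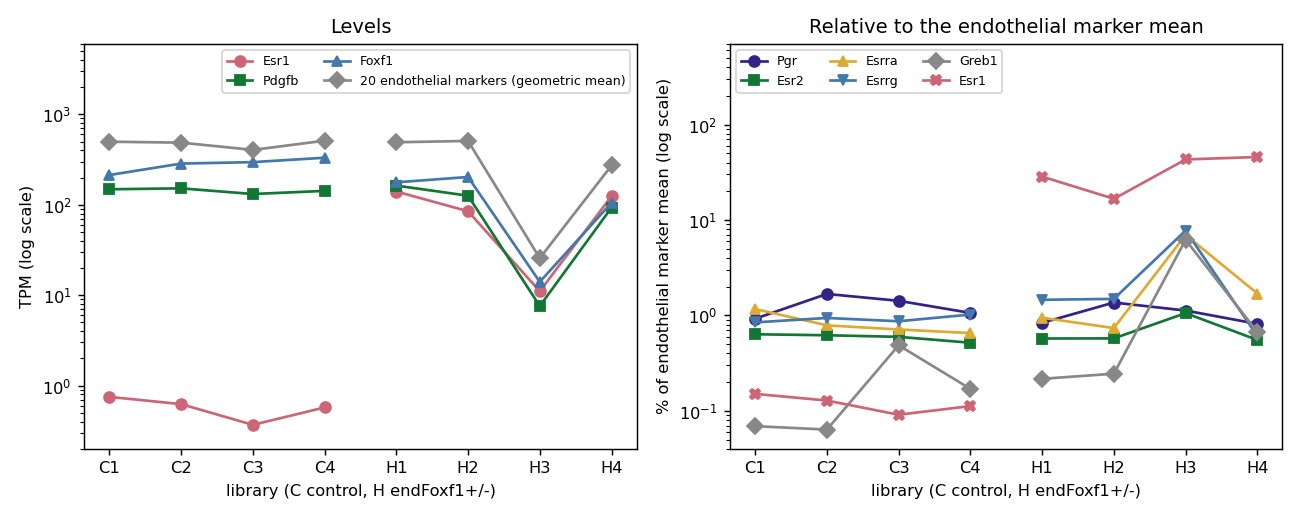
Left, TPM (log axis) of *Esr1*, *Pdgfb*, *Foxf1* and the geometric mean of 20 endothelial markers in each library. Right, 6 genes as a percentage of that endothelial mean (log axis); *Esr1* lies between 0.0910% and 0.151% in control libraries and between 16.7% and 45.8% in endFoxf1+/- libraries, and *Pgr* between 0.815% and 1.68% in all 8.

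Neither target gene passed the test between the groups, and their mean differences had opposite signs. Across all 14964 genes 0% had an adjusted p under 0.05 (limma, Benjamini-Hochberg), 836 genes (5.59%) had an unadjusted p under 0.05, 2.73% were higher in endFoxf1+/- TECs with no overlap between the groups and 2.31% were lower with no overlap. Of the 5 tested genes other than *Esr1*, 0 had an unadjusted p under 0.05 and 0 had groups that did not overlap.

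*Pgr*, on chromosome 9 from 8899833 to 8968611, had a TPM of 4.60, 8.17, 5.75 and 5.43 in C1 to C4 and 4.11, 6.93, 0.289 and 2.21 in H1 to H4. H2 lay within the control range, H1 just below it, and H3 and H4, the libraries poor in endothelial markers, farthest below it. The mean was 5.99 ± 1.53 in control and 3.39 ± 2.83 in endFoxf1+/- TECs (SD, n = 4 each), and the log2 difference was -0.93 (SE 0.51, 95% interval -2.08 to 0.22, limma adjusted p = 0.790). It was -0.44 without H3 and -0.11 without H3 and H4. As a share of the endothelial marker mean, *Pgr* was 0.836%, 1.36%, 1.12% and 0.815% in H1 to H4 and between 0.924% and 1.68% in control libraries. In that measure H3 lay inside the control range, and H1 and H4 just below it.

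*Greb1*, on chromosome 12 from 16670615 to 16800886 on the minus strand, was a gene of low level in every library. Its TPM was 0.344, 0.309, 1.96 and 0.868 in C1 to C4 and 1.06, 1.24, 1.59 and 1.82 in H1 to H4. The endFoxf1+/- libraries lay above C1, C2 and C4, but C3 had the highest value of all 8. The mean was 0.872 ± 0.772 in control and 1.43 ± 0.341 in endFoxf1+/- TECs (SD, n = 4 each). The log2 difference was 0.45 (SE 0.32, 95% interval -0.27 to 1.17, limma adjusted p = 0.790), 0.41 without H3 and 0.70 without C3. *Greb1* passed the minimum mainly through the endFoxf1+/- libraries, in which all 4 values were over 1, so its presence among the tested genes leans on the group where it was higher.

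Near 1 TPM the pseudocount sets much of the size of a difference, and that of *Greb1* was 0.95 with a pseudocount of 0.1 and 0.14 with one of 5. Relative to the endothelial markers the differences were 0.26 for *Pgr*, 1.64 for *Greb1* and 6.57 for *Esr1*. This setting moves every gene up by the same amount. In it the median difference of the tested estrogen receptor coregulators, a list described below, was 1.06.

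**Figure D3:**
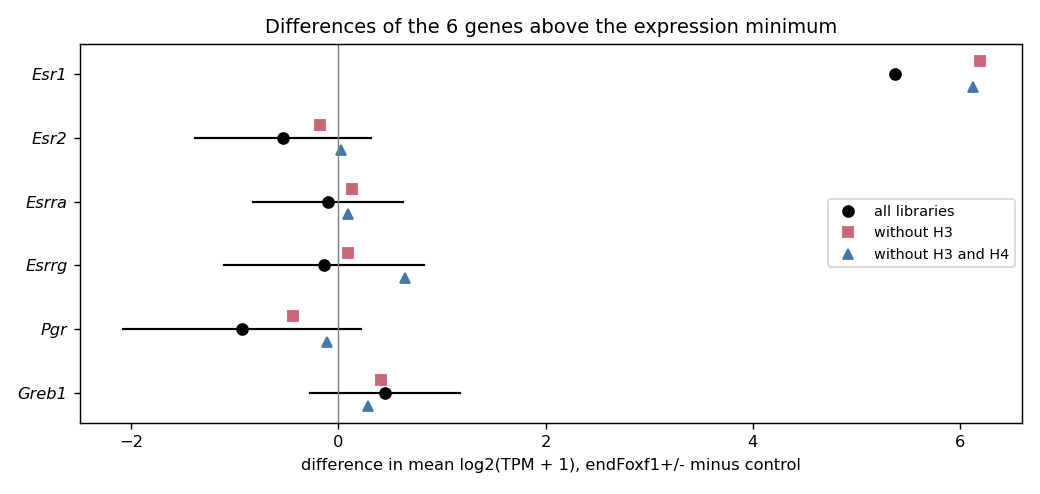
Difference in mean log2(TPM + 1), endFoxf1+/- minus control, of the 6 tested genes in all libraries (circles), without H3 (squares) and without H3 and H4 (triangles); lines are 95% intervals from limma over all libraries. *Esr1*, shown without an interval, lies at 5.38 to 6.19, and the intervals of the other 5 genes all include 0.

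To show what estrogen receptor half-sites look like next to the start of a target, promoter windows of 300 bases (250 before and 50 from the start, RefSeq, GRCm38.p6) were searched on both strands. The full palindrome GGTCANNNTGACC was present in 23 of 32851 windows (0.0700%) and in 0 of the 8 genes. The half-site GGTCA, which the palindrome contains, was present in 13299 windows (40.5%) and in 6 of the 14 windows of the 8 genes (42.9%), a share close to that of all windows. These windows belonged to *Esr1*, *Esr2*, *Esrrb*, *Esrrg* and *Greb1*. The motif TCAAGGTCA of the estrogen-related receptors, which also contains the half-site, was in 139 windows (0.423%) and in 0 of the 8 genes. *Greb1* had 2 listed starts and 3 half-sites, shown with the half-site in capitals, as GGTCA or as its complement TGACC, 5′ to 3′ on the strand of the gene:
Greb1 at chr12:16800958-16800986, minus strand: ccaagcaacaaaTGACCtctgtccccgga
Greb1 at chr12:16757417-16757445, minus strand: tcctaccaggcgGGTCActggggattgaa
Greb1 at chr12:16757308-16757336, minus strand: gatttcaggaagGGTCActtatggtgggt
Of the 2 windows of *Esr1*, 1 held a half-site, on the plus strand:
Esr1 at chr10:4611992-4612020, plus strand: tcctaatttcatGGTCAtaacagcctcgg
These letters are a description of the windows searched and say nothing of binding, and *Pgr*, *Gper1* and *Esrra* had no half-site in their windows.

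By symbol, *Esr2* was the nuclear estrogen receptor of highest TPM in all 4 control libraries, and *Esr1* in all 4 endFoxf1+/- libraries. There, reads of the CreER transgene cannot be told apart from those of *Esr1*. *Esr2*, on chromosome 12 from 76120419 to 76177259, had a TPM of 3.16, 3.01, 2.41 and 2.64 in C1 to C4 and 2.81, 2.92, 0.271 and 1.50 in H1 to H4. H1 and H2 lay within the control range and H3 and H4 below it. The mean was 2.81 ± 0.343 in control and 1.88 ± 1.25 in endFoxf1+/- TECs (SD, n = 4 each). The log2 difference was -0.53 (SE 0.38, 95% interval -1.38 to 0.32, limma adjusted p = 0.790), -0.18 without H3 and 0.026 without H3 and H4. Against the endothelial marker mean the 3 libraries H1, H2 and H4 stood at 0.573%, 0.574% and 0.553%, within the control range of 0.517% to 0.634%, and H3 stood at 1.06%.

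*Gper1*, on chromosome 5 from 139423151 to 139427800, had a TPM of 0.141, 0.280, 0.257 and 0.493 in C1 to C4 and 0.0304, 0.288, 0.333 and 3.73 in H1 to H4. It was under 0.5 in 7 libraries and stood out in H4 alone. The means were 0.293 ± 0.147 and 1.10 ± 1.76 (SD, n = 4 each), and an exact two-sided permutation test gave p = 0.714. *Gper1* lies within *3110082I17Rik*, a gene on the opposite strand with a TPM of 23.8 to 38.2. Since the library kit does not mark strand, reads of the pair cannot be told apart where they overlap.

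*Esrra* and *Esrrg* were measured at a few TPM in both groups and neither passed the test, and *Esrrb* was listed at 0 in 6 of 8 libraries. *Esrra*, a regulator of mitochondrial genes on chromosome 19 from 6910977 to 6921813, had a TPM of 5.81, 3.83, 2.88 and 3.34 in C1 to C4 and 4.64, 3.74, 1.79 and 4.61 in H1 to H4. The groups overlapped, with H3 lowest. The mean was 3.96 ± 1.29 and 3.70 ± 1.34 (SD, n = 4 each), and the log2 difference was -0.10 (SE 0.32, 95% interval -0.83 to 0.62, limma adjusted p = 0.935). It was 0.13 without H3. The end of *Esrra* overlaps *Trmt112* on the opposite strand.

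*Esrrg*, on chromosome 1 from 187608791 to 188214885, had a TPM of 4.21, 4.58, 3.51 and 5.22 in C1 to C4 and 7.16, 7.58, 1.99 and 1.65 in H1 to H4. H1 and H2 lay above all control libraries and H3 and H4 below all of them. The mean was 4.38 ± 0.712 in control and 4.60 ± 3.21 in endFoxf1+/- TECs (SD, n = 4 each). The log2 difference was -0.14 (SE 0.43, 95% interval -1.10 to 0.83, limma adjusted p = 0.933). With H1 and H2 alone against the controls it was 0.65 (95% interval 0.19 to 1.10, limma adjusted p = 0.307). In H4 the endothelial level was 57.2% of the control mean, and *Esrrg* amounted to 0.608% of the endothelial marker mean there, below the control range of 0.845% to 1.02%. The others stood at 1.46% (H1), 1.49% (H2) and 7.76% (H3), above that range. *Esrrb*, a gene of pluripotent cells and placenta, had a TPM of 0.0333 in C3 and 0.0212 in H3.

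In control TECs the order by mean TPM was *Pgr*, *Esrrg*, *Esrra*, *Esr2*, *Greb1*, *Esr1*, *Gper1* and *Esrrb*. The ranges of *Pgr*, *Esrrg* and *Esrra* overlapped between neighbours, as did those of *Esrra* and *Esr2*, of *Greb1* and *Esr1*, and of *Esr1* and *Gper1*. *Esr2* lay above *Greb1* in all 4 control libraries. In endFoxf1+/- TECs the symbol *Esr1*, which may hold transgene reads, came first by a wide margin. Its lowest library (11.1) lay above the highest value of any of the other genes (7.58, *Esrrg* in H2).

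The profile of a gene is its log2(TPM + 1) in the 8 libraries minus its own mean, and likeness was taken as the root mean square difference from the profile of *Esr1*. The 6 nearest genes were *Rpl3-ps1* (1.85), *Gm13349* (1.94), *Gm13394* (2.03), *Rpl15-ps2* (2.05), *Gm12987* (2.08) and *Gm7336* (2.14), which by name are ribosomal protein pseudogenes or predicted gene models. This measure depends on the size of the difference of *Esr1*, and a gene with the same value in all libraries would lie at 2.88. *Greb1* (2.72), *Esrra* (2.84), *Esrrg* (2.91), *Esr2* (3.02) and *Pgr* (3.22) lay near that value, the last 3 beyond it.

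Lists of pathway genes were read against all 14964 tested genes, of which 4782 were higher and 10182 (68.0%) lower in endFoxf1+/- TECs, with a median log2 difference of -0.17. Without H3 that median was 0.01, and without H3 and H4 it was 0.14. Of 52 estrogen-responsive genes, which include *Pgr* and *Greb1*, 43 were tested, with 16 higher and 27 lower and a median of -0.22. None had groups that did not overlap (2.73% higher and 2.31% lower over all genes), and 1 had an unadjusted p under 0.05 (5.59% over all genes). That gene was *Rerg*, a Ras-like growth inhibitor, with a TPM of 2.45, 4.05, 5.28 and 3.51 in C1 to C4 and 0.687, 1.26, 0.410 and 3.23 in H1 to H4 (log2 difference -1.11, SE 0.38, limma adjusted p = 0.790, and -0.90 without H3). Without H3 the list had 23 higher and 20 lower and a median of 0.06, and without H3 and H4 the median was -0.07, against 0.14 for all genes. Among its other members, *Tff1*, the trefoil factor by which estrogen response is often read, was listed at 0 in 7 libraries, and *Xbp1* had a mean of 190.9 ± 58.7 in control and 203.8 ± 87.7 in endFoxf1+/- TECs (SD, n = 4 each).

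Of 10 estrogen-responsive genes of endothelium, 9 were lower and 1 higher, with a median of -0.68 that changed to -0.08 without H3 and to 0.11 without H3 and H4. The adhesion molecule gene *Icam1* was the 1 gene whose groups did not overlap (over all genes 2.31% were lower with no overlap). Its TPM was 225, 203, 246 and 240 in C1 to C4 and 183, 144, 19.6 and 194 in H1 to H4 (log2 difference -1.17, SE 0.64, limma adjusted p = 0.790, and -0.40 without H3). *Nos3*, endothelial nitric oxide synthase, had a mean of 14.1 ± 3.02 in control and 12.3 ± 9.59 in endFoxf1+/- TECs (SD, n = 4 each), and H1 and H2 (20.8 and 19.6) lay above the control libraries while H3 and H4 (0.940 and 7.76) lay below them.

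**Figure D4:**
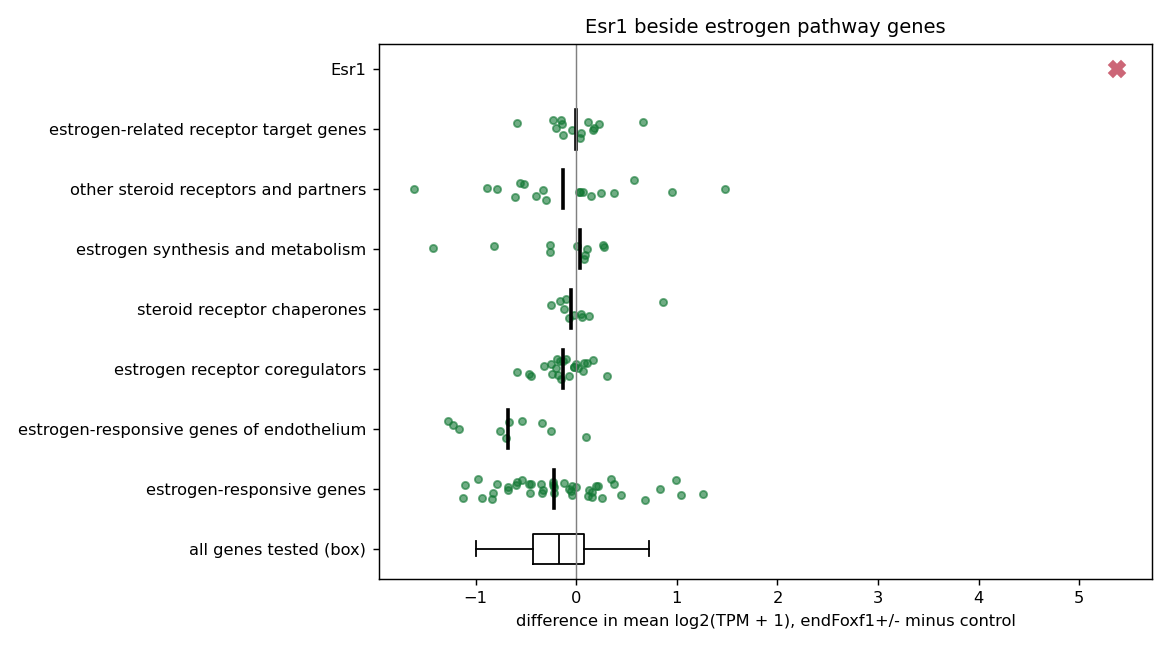
Difference in mean log2(TPM + 1), endFoxf1+/- minus control, of each tested gene of 7 estrogen and steroid receptor lists (points; black bars are list medians), with *Esr1* on top and all 14964 tested genes as a box (quartiles and median, whiskers from the 5th to the 95th percentile). *Esr1* lies at 5.38, and every other gene shown lies between -1.61 and 1.48.

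Genes of proteins that work with the receptor were read in the same way. The shares over all genes were 5.59% for an unadjusted p under 0.05, and 2.73% (higher) and 2.31% (lower) for groups without overlap. Of 23 tested coregulators 6 were higher and 17 lower, with a median of -0.13 (0.02 without H3 and 0.16 without H3 and H4), and none had an unadjusted p under 0.05 or groups that did not overlap. The smallest p in that list belonged to *Ppargc1a*, a coactivator of estrogen-related receptors, with means of 3.47 ± 1.78 and 1.92 ± 0.965 TPM (SD, n = 4 each; log2 difference -0.59, SE 0.38, and -0.35 without H3). Of 10 steroid receptor chaperones 4 were higher and 6 lower, with a median of -0.05. Without H3 2 were higher and 8 lower, with a median of -0.07, and without H3 and H4 the median was -0.20, against 0.14 for all genes. The smallest p there was that of the co-chaperone *Fkbp5*, with means of 6.04 ± 2.50 and 12.6 ± 7.85 TPM (SD, n = 4 each) and its highest value, 24.1, in H3 (log2 difference 0.86, SE 0.42, and 0.52 without H3). *Hsp90ab1*, an HSP90 gene whose protein holds unliganded receptors, had means of 1451 ± 806 and 1492 ± 462 TPM (SD, n = 4 each).

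Of the genes of estrogen synthesis and metabolism 10 were tested, with 6 higher and 4 lower and a median of 0.04 (0.087 without H3). *Cyp17a1*, which makes the androgen precursors of estrogens, was lower with groups that did not overlap, as were 2.31% of all genes. It was tested only because of the control libraries, the group where it was higher, so its call is no independent support. Its TPM was 1.75, 2.22, 1.59 and 3.10 in C1 to C4 and 0.268, 0.443, 0 and 0 in H1 to H4. All endFoxf1+/- libraries were under 0.5 (log2 difference -1.42, SE 0.27, limma adjusted p = 0.790), and the difference was -1.35 without H3 and -1.20 with H1 and H2 alone. Of 14 target genes of estrogen-related receptors 7 were higher and 7 lower, with a median of -0.01 (0.055 without H3). None had an unadjusted p under 0.05, against 5.59% of all genes.

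Of 18 tested other nuclear receptors 9 were higher and 9 lower, with a median of -0.13 (-0.07 without H3), and 5 had an unadjusted p under 0.05, each with a limma adjusted p over the threshold. Of these 5, 2 were higher and 1 lower with no overlap between the groups. Over all genes the shares were 5.59% for the unadjusted p, 2.73% for higher and 2.31% for lower with no overlap. *Pparg*, a receptor of fat cells and alveolar macrophages, had a TPM of 2.24, 1.45, 1.46 and 0.989 in C1 to C4 and 2.44, 5.14, 6.88 and 13.1 in H1 to H4 (log2 difference 1.48, SE 0.42, and 1.42 without H3). *Nr2f1*, an orphan receptor, had 1.41, 1.06, 0.867 and 0.633 in C1 to C4 and 1.88, 1.73, 7.36 and 2.23 in H1 to H4, with the highest value in H3, where fibroblast markers were highest (log2 difference 0.95, SE 0.39, and 0.57 without H3). The values of neither gene overlapped between the groups. *Nr2f1* reached the minimum in all 4 endFoxf1+/- but not all control libraries, so its place among these counts leans on the group where it was higher. *Nr1h2*, the oxysterol receptor LXR β, was lower with no overlap, with means of 57.7 ± 5.92 and 40.6 ± 9.18 TPM (SD, n = 4 each; log2 difference -0.52, SE 0.22, and -0.41 without H3). The mineralocorticoid receptor *Nr3c2* (-1.61, SE 0.64, and -1.01 without H3) and the retinoic acid receptor *Rarb* (-0.79, SE 0.33, and -0.57 without H3) were lower on average, with overlapping groups.

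The 5 protein-coding genes on either side of *Esr1* on chromosome 10 did not share its difference. Of the 10, 8 were tested, with 3 higher and 5 lower and a median of -0.36 (0.04 without H3), and in none of them did the groups stay apart. On the upstream side these were *Akap12*, *Zbtb2*, *Rmnd1*, *Armt1* and *Ccdc170*, and on the downstream side *Syne1*, *Gm10097*, *Myct1*, *Vip* and *Fbxo5*. *Ccdc170*, the next gene upstream, had a mean of 1.26 ± 0.372 in control and 0.468 ± 0.330 TPM in endFoxf1+/- TECs and did not pass the minimum. *Syne1*, the next gene downstream, had 127 ± 18.4 and 89.9 ± 56.2 TPM (SD, n = 4 each). *Fbxo5*, an inhibitor of the anaphase-promoting complex, was the 1 neighbour with an unadjusted p under 0.05 (log2 difference 0.93, SE 0.39, limma adjusted p = 0.790, and 0.94 without H3), with a TPM of 4.40 to 9.56 in control and 6.18 to 22.9 in endFoxf1+/- libraries. Over all genes 5.59% had an unadjusted p under 0.05, and 2.73% were higher and 2.31% lower with no overlap.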

How the data were processed

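For each library the authors deposited TPM per gene symbol, a level per transcript length that sums to 1000000 in each library. Their processing notes name GRCm38/mm10, TopHat, Cufflinks, Subread and DESeq2 without versions; the annotation is not given in the sources used here. TPM keep no read number, so depth is unknown and no counting interval was computed. DESeq2 needs counts and was not repeated.

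The 14964 genes that reached a TPM of 1 in 4 or more libraries were fitted on log2(TPM + 1) with limma 3.58.1 in R 4.3.3 (intensity trend, two-sided, Benjamini-Hochberg over all genes, threshold 0.05). The fit was tried on simulated data with the same spread in all libraries, which does not cover libraries as deviant as H3 and H4. The pseudocount understates changes of low genes. Single values were compared by exact permutation over 70 assignments. Of 33641 symbols 32159 (95.6%) matched GENCODE vM21, the source of coordinates; all 8 genes matched RefSeq promoters.

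The members and lists were chosen with earlier results of these data known. Named from each list were genes with unadjusted p under 0.05 or non-overlapping groups, at most 3 per direction, or else that of smallest p; also the 6 profiles nearest *Esr1* and its 5 neighbours per side. *Tff1*, *Xbp1*, *Nos3* and *Hsp90ab1* were named outside this rule, after their values were seen. Cell type markers and Y-linked genes were given as levels and counts instead, and single ones such as *Lyz2* were likewise named after their values were seen. Alternatives were pseudocounts of 0.1 and 5, a minimum TPM of 5 or none, quantile and median ratio scaling, no trend, array weights and libraries left out.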

Additional observations from a re-analysis of the deposited data

Results flagged for a closer look

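Among 20 groups of 4 libraries examined, 3 held a library far from the others by Dixon's criterion at 95%. For groups without ties chance alone gives this in about 1 of 20. *Gper1* passed the criterion narrowly and stood at 3.73 TPM in endFoxf1+/- library H4, against 0.0304 to 0.333 in the other endFoxf1+/- libraries. *Esrrb* stood at 0.0333 TPM in control library C3 and at 0.0212 TPM in endFoxf1+/- library H3, and was listed at 0 in all others, so that each is the single value above 0 of its group and meets the criterion by construction, whatever its size.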

How the results depend on the processing

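The number of genes with an adjusted p under 0.05 (0 in all libraries) was 148 with array weights, 3 without H3 and H4 (*C1qa* and *Gm6851* beside *Esr1*) and 0 to 1 leaving out 1 library each (*Rpl3-ps1* without C1). *Esr1* is counted in the first and second of these and is the 1 gene without H3. It was selected on these same values, so this is no test of it. Array weights gave H3 a weight of 0.0643 and H4 0.178. The difference of *Esr1* was 6.59 with a pseudocount of 0.1, 3.69 with a pseudocount of 5, 5.01 to 6.19 leaving out 1 library each and 6.57 relative to endothelial markers. That last setting was chosen after seeing the data. It subtracts the same value from all genes of a library, so every difference moved up by the same amount. In it *Esr2* (0.66), *Esrra* (1.09), *Esrrg* (1.05) and *Pgr* (0.26) changed sign, and the medians became 0.97 for estrogen-responsive genes and 1.06 for coregulators. Without H3 and H4 *Esr2* (0.026), *Esrra* (0.093) and *Esrrg* (0.65) changed sign. So did *Esrra* and *Esrrg* with quantile normalization (0.046 and 0.042) and array weights (0.18 and 0.54), and *Esrra* with median ratio scaling (0.043). Leaving out 1 library each gave -0.21 to 0.13 for *Esrra*, -0.41 to 0.15 for *Esrrg*, -1.31 to -0.44 for *Pgr*, -0.25 to 0.060 for estrogen-responsive genes and -0.20 to 0.022 for coregulators. *Greb1* was higher in all 17 alternatives that tested it, at 0.30 to 0.70 leaving out 1 library each, 0.95 with a pseudocount of 0.1, 0.14 with a pseudocount of 5 and 1.64 relative to endothelial markers. Adjusted p of the tested genes other than *Esr1* ranged from 0.199 to 0.994 over the alternatives. The cause of the other shifts was not tested.

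Genes with an unadjusted p under 0.05 (836) numbered 519 at a minimum TPM of 5, 2866 with array weights, 1813 without H3 and H4 and 426 to 1616 leaving out 1 library each. Genes higher with no overlap (409) numbered 259, 3025 (without H3 and H4) and 490 to 973, and genes lower with no overlap (345) numbered 627 without H3 and H4 and 389 to 862. Fewer libraries overlap less by construction. At a minimum TPM of 5 *Esr2*, *Esrra*, *Esrrg* and *Greb1* were not tested. No paired analysis was possible because the library numbers in the labels differ between the groups. Depth is unknown, so the counting error of low genes such as *Gper1* and *Esrrb* cannot be given.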
